A study of Arabidopsis thaliana with 14 samples.

Results

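In light-grown Arabidopsis seedlings, 64 gene loci without a gene symbol in the annotation used here differed from wild type by at least 1 log2 in 2 COP9 signalosome mutants, with opposite signs in csn5a-1 and in CSN8. A log2 difference of 1 is a 2-fold change. They came from 11797 such loci measured by a probe set that the platform annotation assigns to exactly 1 gene. Of the 64, 40 were higher in csn5a-1 and lower in CSN8, and 24 were lower in csn5a-1 and higher in CSN8. A locus was taken when mean csn5a-1 minus mean Columbia was at least 1 log2 in size with no overlap of the arrays. In addition, CSN8 minus Wassilewskija without DTT had to be at least 1 with the opposite sign in batch 1 and again in batch 2. The loci were therefore chosen by their measured values, and those changes are given below as descriptions with no test. One locus was set aside in advance and is not reported here.

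The COP9 signalosome is a protein complex that removes the small modifier RUB (NEDD8 in animals) from cullin subunits of ubiquitin ligases and so tunes which proteins are degraded. CSN5A is one of the plant forms of its catalytic subunit, and CSN8 is another subunit. Loss of the complex is known in Arabidopsis for seedlings that develop in the dark as if in light. DTT (dithiothreitol) is a reducing agent that disturbs the folding of proteins in the endoplasmic reticulum.

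RNA of whole seedlings 12 days old, grown on MS agar with 16 h light and 8 h dark, was hybridised to Affymetrix ATH1 arrays, 14 in all. The wild type Columbia and the mutant csn5a-1 had 3 arrays each. The wild type Wassilewskija and the mutant CSN8 had 2 arrays each without and 2 each with DTT, 1 of each group in batch 1 and 1 in batch 2. The labels give no dose or duration for DTT, their treatment text names no added treatment for any sample, and the accession from which the CSN8 mutant derives is not stated. They describe the Columbia and csn5a-1 arrays as biological replicates and name no separate cultures for any group. All p-values below come from the 8 Wassilewskija and CSN8 arrays and measure the spread between those arrays, which may be technical.

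The deposited values are log2 expression summaries. The 6 Columbia and csn5a-1 arrays and the other 8 arrays appear to have been normalized separately, since sorted values had a median gap of 0.012 to 0.076 between arrays of the same set and of 0.472 to 0.534 between arrays of different sets. Differences were therefore taken within a set, and the sets were joined only by percentile rank within an array. Neither CSN5A nor the gene of CSN8 has a single-gene probe set here, which leaves the genotype labels without a check at the mutated genes. Rubisco activase (AT2G39730) was the one of 7 listed leaf markers with such a probe set. Its mean level was 13.80 in Columbia and 13.59 in csn5a-1, and 13.17 to 13.42 in the groups of the other set. These levels are not compared between the sets. The difference between the 3′ and 5′ actin control probe sets was 4.95, 4.56 and 3.93 log2 in csn5a-1 replicates 1, 2 and 3 and 3.35 to 3.67 in Columbia. In batch 1 the actin difference was 4.28 in CSN8 and 4.15 in CSN8 + DTT, and it was 3.22 to 3.90 in the rest of that set. For GAPDH the difference was 1.67 in the CSN8 batch 1 array and 0.25 to 0.62 in the other 7 arrays of the same set. It was 1.24 to 1.67 in Columbia and 1.29 to 1.67 in csn5a-1.

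The 40 loci higher in csn5a-1 exceeded Columbia by a median of 1.75 log2, with a range of 1.03 to 3.90, and lay below Wassilewskija in CSN8 by a median change of -1.91. The median CSN8 change was -2.16 in batch 1 and -1.67 in batch 2. The 24 loci of the other direction had a median change of -1.65 in csn5a-1 and 1.88 in CSN8, with 2.02 in batch 1 and 1.66 in batch 2. Over all 22746 probe sets the median change was -0.04 in csn5a-1 and 0.02 in CSN8. The limits were met in csn5a-1 by 1164 unnamed probe sets and in CSN8 by 418. Besides the 64 with opposite signs, 95 had the same sign in both mutants, 52 higher and 43 lower. Among all probe sets, whatever their annotation, 145 met the opposite limits, 95 of them higher in csn5a-1. Of 1580 single-gene probe sets with a gene symbol, 8 did so (0.506%), 4 in each direction, which is close to the 0.536% of the 11932 without one.

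**Figure D1:**
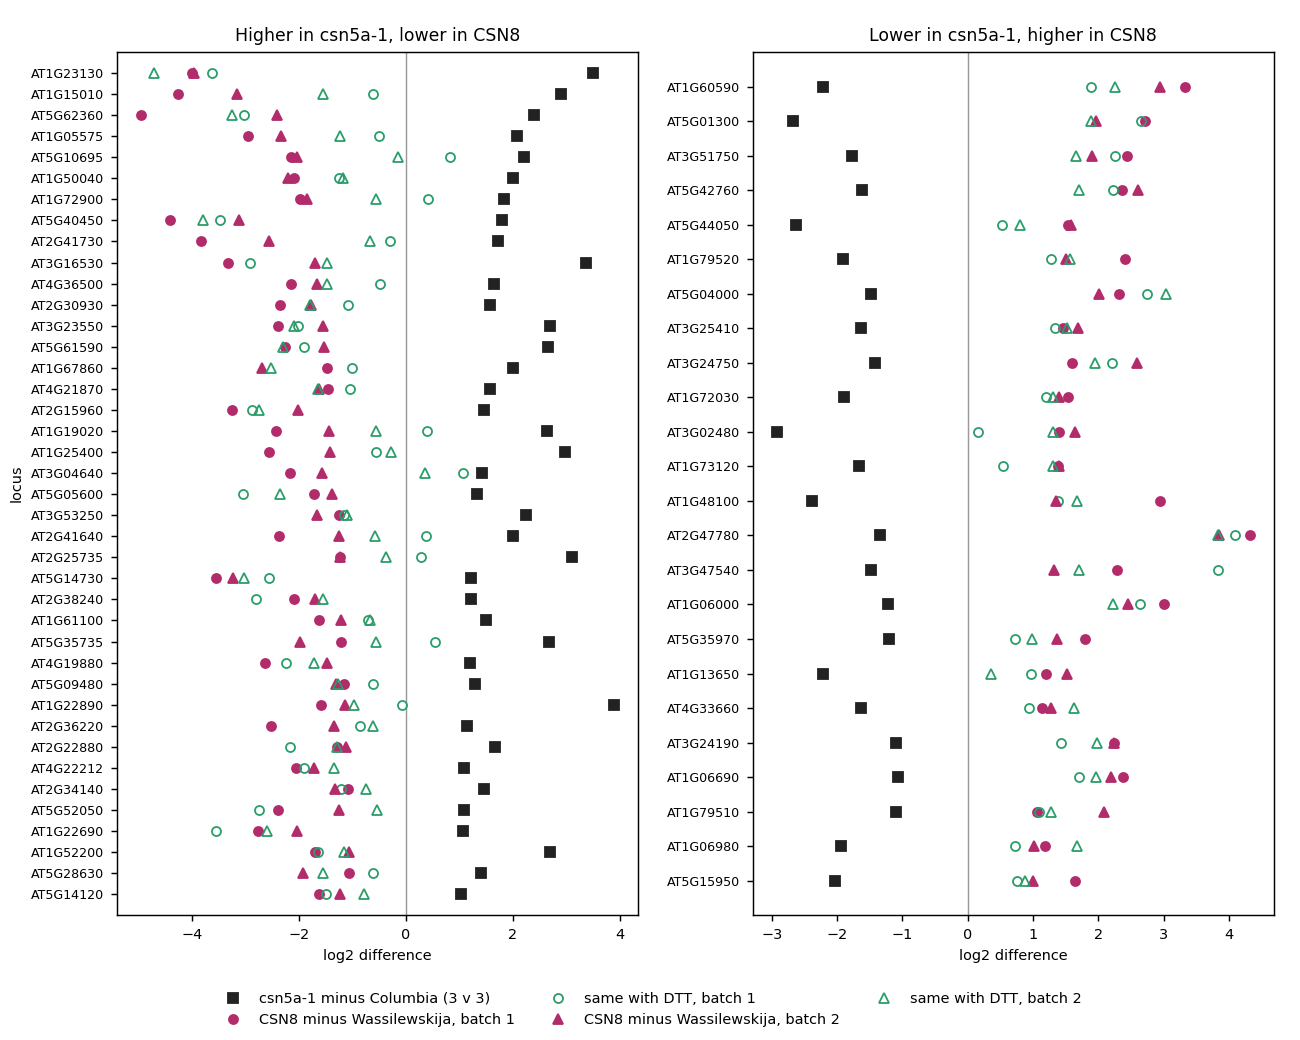
Log2 difference (horizontal axis) of each of the 64 loci (vertical axis): csn5a-1 minus Columbia (black squares, means of 3 arrays each) and CSN8 minus Wassilewskija in batch 1 and batch 2 without DTT (filled) and with DTT (open green). The black and filled symbols lie on opposite sides of 0 because they chose the loci; the open symbols did not enter the choice, and for the 24 loci of the right panel all of them lie above 0.

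At the edge of the limits, AT5G15950 and AT1G06980 were just inside, with smallest changes of 1.00 and 1.02 log2. AT1G06550 and AT2G18100 were just outside, with 0.9973 and 0.9951. The number of loci therefore depends on the limit, and a limit of 0.8 log2 gave 110.

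The arrays with DTT took no part in the choice, so the mutant difference with DTT is estimated in other samples. The spread in its test came from all 8 arrays, including those without DTT that chose the loci. Its p-values are therefore not free of the choice. In CSN8 + DTT against Wassilewskija + DTT, 22 of the 64 loci passed an adjusted p of 0.05 (limma, fitted over 22746 probe sets and 8 arrays), each with the sign seen without DTT. Of the 24 loci, 11 were called higher (45.8%) where 2.08% of all probe sets were, and of the 40, 11 were called lower (27.5%) where 2.05% were. Probe sets that differed in CSN8 without DTT give a closer background. Of the 453 probe sets at least 1 log2 higher in CSN8 in both batches 61.4% were called higher, and of the 630 that were lower 43.5% were called lower. The shares of 45.8% and 27.5% lie below these. At an unadjusted p of 0.05, 21 of the 24 (87.5%) and 26 of the 40 (65.0%) passed, where 18.8% of all probe sets did. The closer background was not taken for this limit.

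The labels tie the arrays of a batch together, and with the batch as a block 21 of the 24 and 23 of the 40 were called. Of all probe sets 4.37% were called higher and 4.62% lower. The share among probe sets that differed in CSN8 without DTT was not taken with the block, so an excess over that background is not shown. All 22 earlier calls were among these 44. With the 4 DTT arrays alone, a fit that uses no array of the choice, 14 were called, all of them among the 22. In that fit 624 of all 22746 probe sets were called. The share among probe sets that differed in CSN8 without DTT was not taken for it. The count also rested on single arrays, as 7 were called without Wassilewskija + DTT batch 1, 8 without CSN8 + DTT batch 1 and 4 without Wassilewskija + DTT batch 2.

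By sign alone, all 24 loci were higher in CSN8 + DTT in both batches, 16 of them (66.7%) by at least 1 log2 in both, where 2.27% of all probe sets were. The CSN8 + DTT arrays lay above both Wassilewskija + DTT arrays at 23 of the 24, compared with 28.3% of all probe sets. Of the 40 loci, 33 were lower in both batches, 20 (50.0%) by at least 1 log2 in both, where 2.73% of all probe sets were. At 30 of the 40 the CSN8 + DTT arrays lay below both Wassilewskija + DTT arrays, compared with 22.7% of all probe sets. For this lack of overlap no share among probe sets past the same CSN8 limits was taken. Among all probe sets past the same CSN8 limits, 98.0% of those higher and 93.5% of those lower kept their sign with DTT in both batches, and 66.0% and 59.0% differed by at least 1 log2 in both. The share of 66.7% lies close to that background and the share of 50.0% below it. The median mutant change with DTT was 1.47 log2 over the 24 loci (0.66 to 3.97) and -1.18 over the 40 (-4.17 to 0.70), against 0.03 over all probe sets.

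Among the loci higher in csn5a-1, AT1G23130 had the largest smallest change. Its log2 level was 7.50, 8.38 and 7.42 in Columbia and 11.28, 11.23 and 11.29 in csn5a-1. Without DTT it was 8.60 and 8.97 in Wassilewskija and 4.59 and 5.0 in CSN8. The csn5a-1 arrays lay close together and 11.3-fold above the Columbia mean, and both CSN8 arrays lay far below both Wassilewskija arrays. With DTT it was 7.99 and 9.21 in Wassilewskija and 4.36 and 4.49 in CSN8. That difference was -4.17 ± 0.38 (SE, limma) with an adjusted p of 0.00412, and the groups did not overlap.

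AT5G40450 followed the same course. It was at 6.92, 6.59 and 6.39 in Columbia and 8.93, 8.11 and 8.23 in csn5a-1, and at 8.75 and 8.37 in Wassilewskija against 4.32 and 5.24 in CSN8. With DTT the levels were 8.13 and 8.54 in Wassilewskija and 4.65 and 4.73 in CSN8. The mutant difference with DTT, -3.64 ± 0.32 with an adjusted p of 0.00365, was close to the -3.78 without it.

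AT5G14730 had the smallest adjusted p of the 40 loci with DTT, 0.00268, for a difference of -2.80 ± 0.21. Its levels were 5.27, 5.03 and 4.44 in Columbia and 6.27, 6.38 and 5.77 in csn5a-1. In Wassilewskija they were 9.17 and 8.71 without and 8.87 and 8.96 with DTT, and in CSN8 5.61 and 5.48 without and 6.30 and 5.93 with DTT. All 4 Wassilewskija arrays thus stood above all 4 CSN8 arrays.

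AT2G15960 read 8.66, 9.18 and 9.47 in Columbia and 10.94, 10.46 and 10.26 in csn5a-1. It read 11.16 and 10.52 in Wassilewskija and 7.91 and 8.49 in CSN8, and with DTT 10.76 and 11.18 against 7.87 and 8.44. The difference with DTT was -2.82 ± 0.33 with an adjusted p of 0.00836, and in neither genotype and batch did the levels with and without DTT differ by more than 0.66 log2.

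AT3G23550 was at 5.08, 5.09 and 4.84 in Columbia and 8.48, 7.25 and 7.34 in csn5a-1. Wassilewskija had 6.39 and 6.28 and CSN8 3.98 and 4.73 without DTT, and 6.09 and 6.51 against 4.07 and 4.42 with it. The mutant difference with DTT was -2.06 ± 0.28 with an adjusted p of 0.015. AT4G22212 was 2.12-fold higher in csn5a-1, and with DTT lower in CSN8 by -1.63 ± 0.23 (adjusted p 0.0155), from 10.87 and 10.71 in Wassilewskija to 8.95 and 9.37.

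AT1G50040 and AT2G30930 were also called lower with DTT, at -1.22 ± 0.21 (adjusted p 0.028) and -1.44 ± 0.24 (adjusted p 0.0282). In csn5a-1 both leaned on 1 array. AT1G50040 was at 8.67, 5.46 and 5.48 there against 4.60, 4.39 and 4.62 in Columbia, and AT2G30930 at 10.70, 9.05 and 9.28 against 8.12, 8.08 and 8.10. Replicate 1 stood apart at both loci, while the groups stayed separate without it. Without replicate 1 the csn5a-1 change of AT1G50040 fell below the limit of 1 log2, and that of AT2G30930 stayed above it. The remaining called loci were AT5G05600, AT2G34140 and AT3G53250, with differences of -2.71, -0.98 and -1.13 log2 and adjusted p of 0.0209, 0.0279 and 0.046 (limma).

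A pair of loci with wide differences and a wide spread between arrays did not pass. AT5G62360 was at 10.30 and 10.12 in Wassilewskija and 5.33 and 7.70 in CSN8, and with DTT at 9.22 and 10.41 against 6.19 and 7.16. The difference of -3.14 ± 0.77 had an adjusted p of 0.0782, and of 0.0173 with the batch as a block. AT3G16530, 10.2-fold higher in csn5a-1 with 9.06, 9.11 and 9.07 against 5.6, 5.71 and 5.86, had -2.20 ± 0.52 with DTT (adjusted p 0.0712, and 0.0366 with the block).

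A further set of the 40 loci had a smaller mutant difference in the arrays with DTT. At 12 loci, CSN8 + DTT was at least 1 log2 above CSN8 in both batches, and at 0 of the 40 did Wassilewskija show this. Over all probe sets these shares were 1.6% in CSN8 and 0.523% in Wassilewskija, so the 0 in Wassilewskija lies close to its background. Of the 630 probe sets lower in CSN8 without DTT, 44 (6.98%) were that much higher in CSN8 with it. The CSN8 and Wassilewskija arrays without DTT entered both the choice of loci and these DTT changes. The changes are therefore descriptions and were not tested. The 12 are AT1G05575, AT1G15010, AT1G19020, AT1G25400, AT1G72900, AT2G25735, AT2G36220, AT2G41640, AT2G41730, AT3G04640, AT4G36500 and AT5G10695. Their median DTT change was 2.30 log2 in CSN8 and 0.28 in Wassilewskija. Their median mutant change was -1.93 without and -0.26 with DTT. The 12 were split off by their CSN8 change with DTT. Their larger CSN8 change and smaller mutant change with DTT therefore follow in part from the split. For the other 28 loci the median DTT change was 0.13 in CSN8 and -0.19 in Wassilewskija, and the mutant change -1.89 without and -1.69 with DTT.

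**Figure D2:**
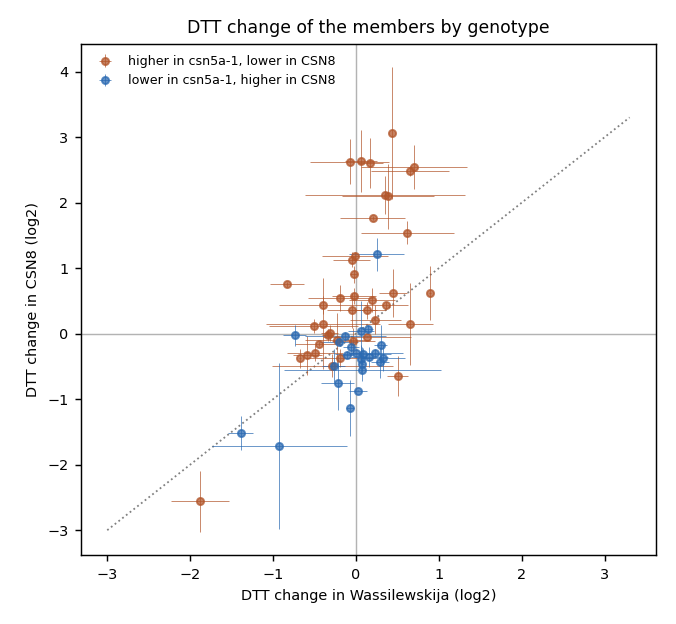
DTT change of each locus (log2, mean of the batches) in Wassilewskija (horizontal axis) and in CSN8 (vertical axis). Bars span the values of batch 1 and batch 2, and the dotted line marks equal change; the orange points above 1 on the vertical axis, with CSN8 values of 1.13 to 3.06 and Wassilewskija values of -0.08 to 0.71, are the 12 described in the text.

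AT1G15010 showed the largest such change. It was at 5.69, 5.53 and 5.87 in Columbia and 8.96, 8.36 and 8.46 in csn5a-1, a 7.45-fold difference. It was at 10.19 and 10.08 in Wassilewskija and 5.93 and 6.91 in CSN8, and with DTT at 10.62 and 10.51 against 9.999 and 8.96. By batch the mutant change was -4.26 and -3.17 without DTT and -0.62 and -1.55 with it. The mutant difference with DTT, -1.08 ± 0.41, had an adjusted p of 0.214.

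AT3G04640 and AT5G10695 were the 2 loci of the 40 whose mean mutant difference had the other sign with DTT. AT3G04640 was at 7.58, 6.42 and 6.81 in Columbia, 9.17, 7.86 and 8.01 in csn5a-1, 7.87 and 7.52 in Wassilewskija and 5.69 and 5.95 in CSN8. With DTT it was at 7.73 and 7.77 in Wassilewskija and 8.79 and 8.12 in CSN8, so that the mutant arrays lay above the wild type in both batches. That difference was 0.70 ± 0.25 with an adjusted p of 0.192. AT5G10695 was at 6.14, 6.16 and 6.22 in Columbia, 9.34, 7.96 and 7.86 in csn5a-1, 8.58 and 8.34 in Wassilewskija and 6.43 and 6.29 in CSN8. With DTT it was at 8.60 and 8.67 in Wassilewskija and 9.43 and 8.52 in CSN8, where the groups overlapped. The difference of 0.34 ± 0.29 had an adjusted p of 0.617, and was -0.11 without CSN8 + DTT batch 1.

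AT1G72900 and AT2G41730 also came close to the wild type with DTT. AT1G72900 was at 8.22 and 7.31 in Wassilewskija and 6.24 and 5.46 in CSN8, and with DTT at 8.40 and 8.43 against 8.81 and 7.86. AT2G41730 was at 10.24 and 8.93 against 6.41 and 6.37, and with DTT at 9.68 and 9.33 against 9.38 and 8.65. The mutant differences with DTT, -0.08 ± 0.43 and -0.49 ± 0.43, had 95% intervals of -1.10 to 0.94 and -1.52 to 0.54. The probe set of AT2G41730 is one that the array design marks as open to cross-hybridisation, so its level is uncertain.

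In AT1G05575 and AT4G36500 part of the difference remained. AT1G05575 was at 6.82 and 5.94 in Wassilewskija and 3.87 and 3.61 in CSN8, and with DTT at 6.21 and 7.25 against 5.70 and 6.01. AT4G36500 was at 8.50 and 7.60 against 6.36 and 5.93, and with DTT at 8.56 and 8.78 against 8.08 and 7.30. Both CSN8 + DTT arrays lay below both Wassilewskija + DTT arrays at each locus, with differences of -0.88 ± 0.40 (adjusted p 0.312) and -0.99 ± 0.37 (adjusted p 0.213).

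The DTT effect pooled over both genotypes shares the arrays without DTT with the choice of loci but weighs mutant and wild type equally. Its error is uncorrelated with that of the mutant difference only if both genotypes have the same spread, which was not tested. The arrays without DTT also gave part of the spread, so these p-values are not free of the choice. No share among probe sets past the same CSN8 limits was taken for this effect. Of the 40 loci, 4 were called higher with DTT, where 0.919% of all probe sets were, and 0 were called lower, where 1.42% were. The 4 were AT3G04640 at 1.35 ± 0.18 log2 (adjusted p 0.0147), AT5G10695 at 1.39 ± 0.20 (0.0209), AT1G15010 at 1.75 ± 0.29 (0.0318) and AT1G19020 at 1.63 ± 0.27 (0.0338), all by limma. All of them belong to the 12 above, whose CSN8 change is part of the pooled effect, so this overlap is no separate result. At each the change was larger in CSN8 than in Wassilewskija in both batches, which the choice of loci can also favour. At AT3G04640, for example, it was 2.64 log2 in CSN8 and 0.06 in Wassilewskija, so the pooled value came almost wholly from the mutant. AT1G19020 was at 9.94 and 8.85 in Wassilewskija and 7.51 and 7.41 in CSN8, and with DTT at 10.001 and 10.19 against 10.39 and 9.62.

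Of the 24 loci, 0 were called in either direction by limma, and 4 (16.7%) passed an unadjusted p of 0.05, as did 15 of the 40 (37.5%), where 13.9% of all probe sets did. With the batch as a block 9 of the 40 were called higher and 1 lower, and 1 of the 24 was called lower, against 1.83% of all probe sets higher and 2.87% lower. The 4 calls without the block were among these 11. They too rested on single arrays: 0 loci were called without either Wassilewskija + DTT array, without CSN8 batch 1 or without Wassilewskija batch 2, and 2 without CSN8 + DTT batch 1.

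A pair of loci was lower with DTT by at least 1 log2 in both genotypes and both batches. AT1G22690, one of the 40, was at 10.63 and 11.00 in Wassilewskija and 7.87 and 8.97 in CSN8, and with DTT at 8.40 and 9.47 against 4.84 and 6.88. Its pooled DTT effect was -2.22 ± 0.50, with an adjusted p of 0.086 and of 0.00686 with the batch as a block. AT2G47780, one of the 24, had a pooled effect of -1.45 ± 0.29, with adjusted p of 0.0576 and 0.00469.

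Among the loci lower in csn5a-1, AT2G47780 had the largest difference in CSN8. It was at 7.56, 7.30 and 7.77 in Columbia and 6.37, 6.09 and 6.15 in csn5a-1. It was at 5.31 and 4.69 in Wassilewskija and 9.64 and 8.54 in CSN8, and with DTT at 3.77 and 3.45 against 7.87 and 7.28. The mutant arrays stood about 4 log2 above the wild type with and without DTT, by 3.97 ± 0.41 with DTT (adjusted p 0.00559).

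AT1G60590 led the 24 by its smallest change. It was at 9.44, 9.40 and 9.35 in Columbia and 5.98, 7.83 and 7.75 in csn5a-1, where replicate 1 lay lowest. It was at 3.11 and 3.43 in Wassilewskija and 6.43 and 6.37 in CSN8, and with DTT at 2.99 and 3.40 against 4.87 and 5.66. The difference with DTT was 2.07 ± 0.28 (adjusted p 0.015), compared with 3.13 without DTT.

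**Figure D3:**
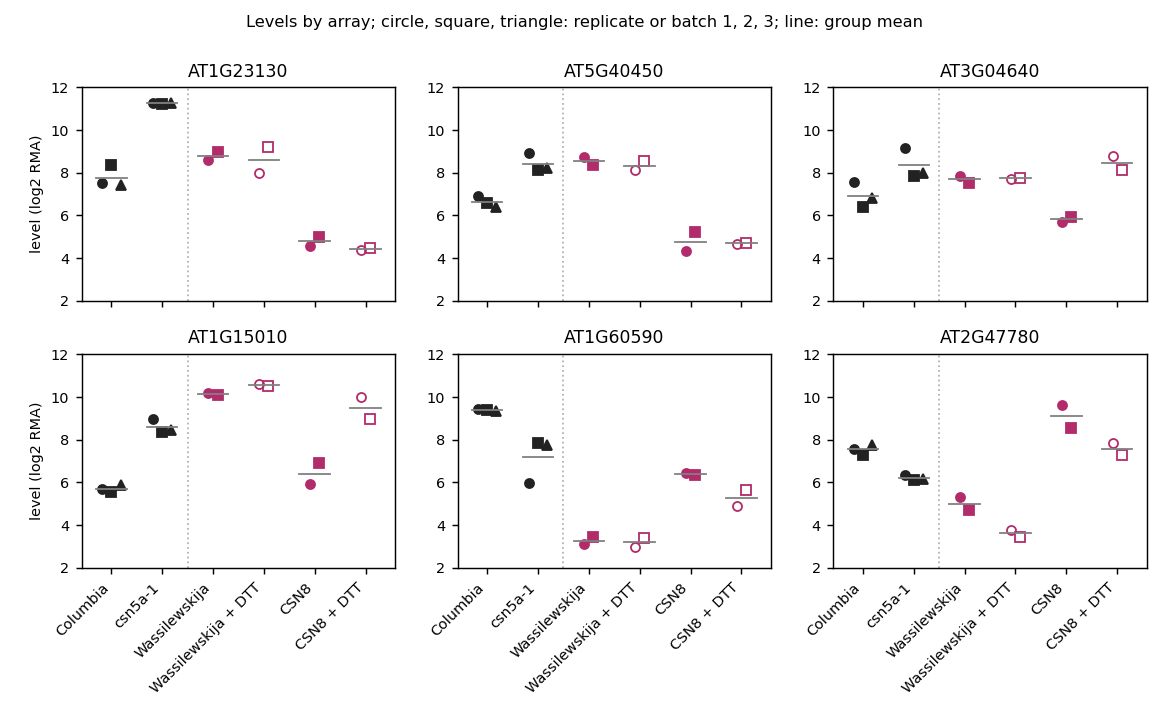
Log2 RMA level (vertical axis) of 6 loci on each array, by group; circles, squares and triangles are replicates or batches 1, 2 and 3, open symbols are arrays with DTT, lines are group means and the dotted line separates the sets of arrays that appear to have been normalized separately. AT1G23130 and AT5G40450 stay low in CSN8 with DTT (4.36 to 4.73), AT3G04640 and AT1G15010 come up to 8.12 to 9.999, and AT1G60590 and AT2G47780 are higher in CSN8 than in Wassilewskija both with and without DTT.

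AT1G06690 and AT1G06000 had the smallest adjusted p of the loci called higher. AT1G06690 was at 9.54, 9.49 and 9.37 in Columbia and 8.16, 8.46 and 8.58 in csn5a-1, at 7.17 and 7.19 in Wassilewskija and 9.54 and 9.38 in CSN8. With DTT it was at 7.24 and 7.24 against 8.94 and 9.20, a difference of 1.83 ± 0.15 with an adjusted p of 0.00336. AT1G06000 was at 8.35, 8.11 and 7.96 in Columbia and 6.47, 7.12 and 7.14 in csn5a-1, and with DTT at 6.75 and 6.62 in Wassilewskija and 9.38 and 8.84 in CSN8. Its difference with DTT was 2.43 ± 0.24 (adjusted p 0.00554), and neither locus had overlapping groups.

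AT3G24190 was at 10.31, 10.37 and 10.26 in Columbia and 9.08, 9.22 and 9.33 in csn5a-1. It was at 7.75 and 7.93 in Wassilewskija and 9.99 and 10.17 in CSN8, and with DTT at 7.84 and 7.99 against 9.27 and 9.96, a difference of 1.70 ± 0.24 (adjusted p 0.0159). No mutant array overlapped its wild type, with or without DTT.

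AT5G01300, 6.36-fold lower in csn5a-1, was at 8.65, 8.60 and 9.06 in Columbia and 5.81, 6.19 and 6.30 in the mutant. It was at 5.40 and 6.44 in Wassilewskija and 8.12 and 8.41 in CSN8, and with DTT at 5.61 and 6.52 against 8.26 and 8.41. The arrays with and without DTT differed by at most 0.20 log2 within a genotype and batch, and the mutant difference with it was 2.27 ± 0.40 (adjusted p 0.0319). AT3G51750 behaved alike, with 4.41 and 5.27 against 6.67 and 6.93 with DTT and a difference of 1.96 ± 0.34 (adjusted p 0.0287). AT3G25410 had 6.37 and 6.46 against 7.70 and 7.98 and a difference of 1.42 ± 0.22 (adjusted p 0.0209).

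AT3G24750 had low levels, with 4.04, 4.74 and 4.93 in Columbia, 2.81, 3.37 and 3.29 in csn5a-1, 2.76 and 2.81 in Wassilewskija and 4.36 and 5.39 in CSN8. Its difference with DTT was 2.07 ± 0.32 (adjusted p 0.0211). The deposited table holds no detection calls, so whether the lower groups lie above background was not tested. AT3G47540 and AT4G33660 were the remaining loci called higher with DTT, by 2.77 ± 0.55 (adjusted p 0.0453) and 1.28 ± 0.26 (adjusted p 0.0473).

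The other named loci of this direction did not pass with DTT in the fit without a block. AT5G42760 and AT5G04000 had differences of 1.96 ± 0.42 (adjusted p 0.0554) and 2.88 ± 0.66 (adjusted p 0.0633), and 0.00322 and 0.00131 with the batch as a block. AT1G79520 and AT1G72030 had 1.42 ± 0.40 and 1.25 ± 0.37, with adjusted p of 0.115 and 0.126 (0.0181 and 0.0101 with the block). AT5G44050 was at 3.47 and 3.72 in Wassilewskija and 5.0 and 5.30 in CSN8, but at 3.60 and 3.64 against 4.12 and 4.44 with DTT, a difference of 0.66 ± 0.19 (adjusted p 0.11, and 0.0397 with the block).

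AT3G02480 and AT1G73120 had differences of 0.74 ± 0.62 (adjusted p 0.616) and 0.92 ± 0.44 (adjusted p 0.334) with DTT, and 0.57 and 0.0454 with the block. AT3G02480 had the largest change of the 24 in csn5a-1, with 7.44, 8.39 and 8.21 against 10.73, 11.00 and 11.10 in Columbia. In CSN8 it was at 10.03 and 9.13 against 8.63 and 7.49, and with DTT at 7.05 and 8.69 against 6.89 and 7.38. The batches thus differed, with 0.16 in batch 1 and 1.31 in batch 2.

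The 4 groups without DTT were set side by side by the percentile rank of each locus among all probe sets of its array. For the 40 loci the median percentile was 49.3 in Columbia, 80.9 in csn5a-1, 88.1 in Wassilewskija and 60.7 in CSN8. Columbia was the lowest group at 29 loci and CSN8 at 11, and Wassilewskija was the highest at 31 and csn5a-1 at 9. For the 24 loci the medians were 86.3 in Columbia, 64.7 in csn5a-1, 61.6 in Wassilewskija and 87.6 in CSN8. Columbia was the highest at 13 and CSN8 at 11, and Wassilewskija was the lowest at 14 and csn5a-1 at 10. Over all 22746 probe sets each of the groups was the highest at 4687 to 6634 and the lowest at 5331 to 6447.

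In median rank each mutant thus lay between its own wild type and the other one or beyond the other one. Columbia ranked below Wassilewskija at 39 of the 40 loci and above it at all 24, and above it at 11435 of all 22746 probe sets. The wild types were farther apart than the mutants at 31 of the 40 loci and at 13 of the 24. This was so at 11906 of all 22746 probe sets, and the count at the 24 lies close to that background. The limits on both mutants partly fix this pattern, the wild types differ in accession and in array set, and these cannot be told apart here. At 0 of the 64 loci did the lowest group lie in the lowest 10 percent of its arrays, as it did at 3203 of all 22746 probe sets. AT1G67860 was the locus where Columbia outranked Wassilewskija, at 74.7 against 47.4, with 93.5 in csn5a-1 and 17.0 in CSN8; it was singled out after its values were seen.

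**Figure D4:**
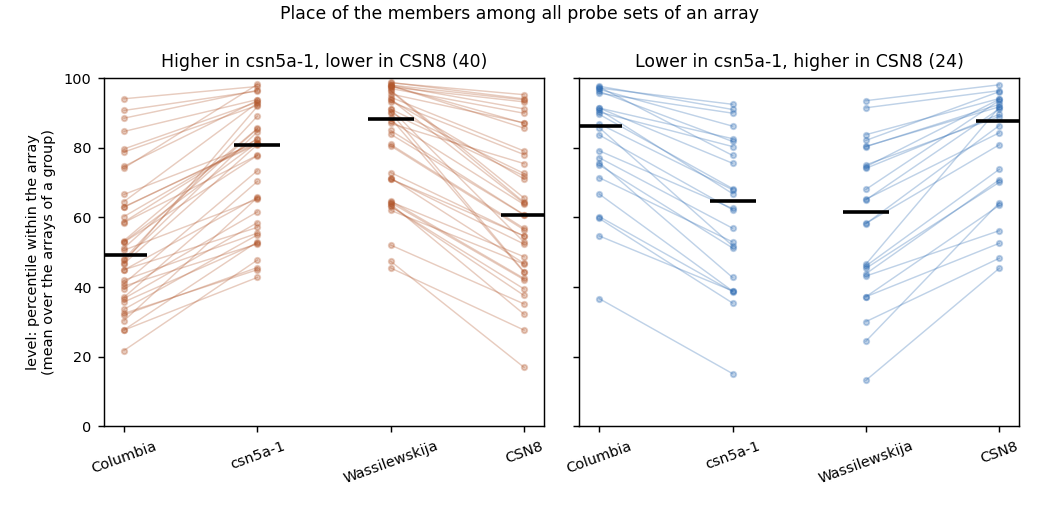
Percentile rank of each locus among all probe sets of an array (vertical axis, mean over the arrays of a group) in the 4 groups without DTT; lines join a mutant with its wild type and black bars are medians. In the left panel the medians run 49.3, 80.9, 88.1 and 60.7, and in the right panel 86.3, 64.7, 61.6 and 87.6.

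In csn5a-1 the loci leaned on replicate 1. It was the array farthest from Columbia at 31 of the 40 loci (77.5%) and 18 of the 24 (75.0%), where it was so for 55.2% and 57.1% of all probe sets past the same limits in csn5a-1. The median difference from Columbia over the 40 loci was 2.24 log2 for replicate 1, 1.49 for replicate 2 and 1.41 for replicate 3, and over the 24 it was -2.05, -1.46 and -1.62. Without replicate 1 the csn5a-1 change was still at least 1 log2 at 32 of the 40 loci and 21 of the 24. The smallest remaining change was 0.49 among the 40, at AT2G38240, which was at 6.81, 4.42 and 4.84 against 4.13, 4.21 and 4.07 in Columbia and was picked out after its values were seen. Replicate 1 was also the array with the largest actin 3′ to 5′ difference, and the part of this in the changes was not tested.

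**Figure D5:**
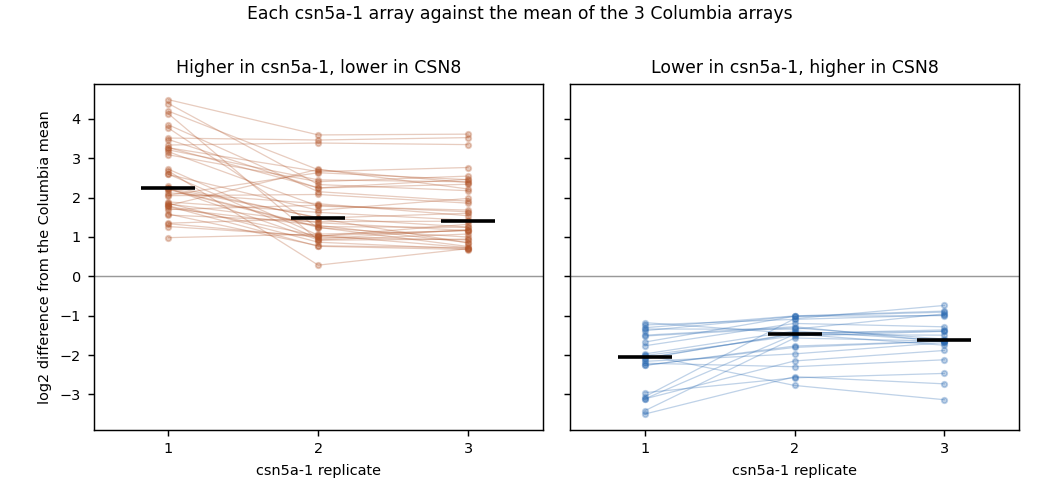
Difference of each csn5a-1 array from the mean of the 3 Columbia arrays (log2, vertical axis) by replicate (horizontal axis); lines join the values of a locus and black bars are medians. Replicate 1 has the largest medians, 2.24 and -2.05.

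In the other set, the CSN8 change without DTT was larger in batch 1 than in batch 2 at 32 of the 40 loci (80.0%), against 61.9% of all probe sets lower in CSN8 by the same limits. At the 24 loci it was larger in batch 1 at 14 (58.3%), against 58.1%. The CSN8 batch 1 array is the one with the high GAPDH 3′ to 5′ difference, whose part in this was not tested. The batch 2 arrays alone, with the same csn5a-1 limits, gave 93 loci.

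Markers of other tissues moved with the groups in part. The root genes EXPA7 and EXPA18, 2 of 4 listed root markers, had mean levels of 4.16 to 4.47 in Columbia and 4.86 in csn5a-1, and of 6.11 to 6.40 in Wassilewskija and 5.15 to 5.53 in CSN8, the direction of the 40 loci. With DTT they were at 4.43 to 4.93 in Wassilewskija and 4.05 to 4.26 in CSN8. The late embryo gene M17, 1 of 7 listed seed markers, was at 10.58 in Columbia and 6.36 in csn5a-1, the direction of the 24 loci, but at 5.97 in Wassilewskija and 5.07 in CSN8, the opposite one. None of 4 flower or 3 pollen markers had a single-gene probe set. In whole seedlings fewer cells of a type and less RNA per cell cannot be told apart, and the part of these tissues in the changes was not tested.

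The annotation used here gives almost no function for these loci. The reference gene table held 63 of the 64, all but AT3G53250, and listed a descriptive synonym for a pair of them. AT5G61590 is DEWAX (Decrease Wax Biosynthesis), a transcription factor that lowers wax production in the leaf surface, and AT5G52050 is DTX50, a detoxification efflux carrier. AT5G61590 was at 6.78, 7.12 and 7.27 in Columbia, 10.33, 9.30 and 9.52 in csn5a-1, 8.95 and 8.92 in Wassilewskija and 6.69 and 7.39 in CSN8. With DTT its mutant difference was -2.10 ± 0.53 (adjusted p 0.0847, and 0.0144 with the batch as a block). AT5G52050 was at 5.50, 5.46 and 5.32 in Columbia, 7.20, 6.19 and 6.10 in csn5a-1, 7.06 and 5.84 in Wassilewskija and 4.67 and 4.58 in CSN8, and its difference with DTT was -1.65 ± 0.58 (adjusted p 0.185).

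By position, the 40 loci lie on chromosomes 1 to 5 in numbers of 12, 9, 4, 4 and 11, and the 24 in numbers of 10, 1, 6, 1 and 6. All unnamed single-gene probe sets numbered 3103, 1968, 2443, 1723 and 2695 on these chromosomes. One pair of the chosen loci is adjacent, with 0 protein-coding genes between them. AT1G79510 and AT1G79520 were both lower in csn5a-1 and higher in CSN8. AT1G79510 was at 9.43, 9.37 and 9.11 in Columbia, 7.92, 8.29 and 8.39 in csn5a-1, 7.30 and 6.99 in Wassilewskija and 8.36 and 9.09 in CSN8. AT1G79520 was at 9.20, 9.29 and 9.14 in Columbia, 6.95, 7.40 and 7.56 in csn5a-1, 4.40 and 5.37 in Wassilewskija and 6.81 and 6.86 in CSN8. Both were above Wassilewskija with DTT as well, by 1.19 ± 0.31 (adjusted p 0.0894) and 1.42 ± 0.40 (adjusted p 0.115), and 0.0381 and 0.0181 with the batch as a block.

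Of the loci not yet described, AT5G35735, AT1G22890, AT4G21870, AT4G19880, AT2G22880, AT1G52200, AT5G28630, AT5G14120, AT1G61100 and AT5G09480 belong to the 40 and had mutant differences of -1.99 to -0.01 log2 with DTT, not called without the block. With it, AT4G19880, AT4G21870, AT1G52200, AT5G14120, AT2G22880 and AT5G09480 were called lower, with adjusted p of 0.0114 to 0.0401. AT1G22890 had the largest csn5a-1 change of all, 14.9-fold, from 5.79, 5.6 and 5.51 to 10.12, 9.23 and 9.25, with 7.27 and 6.84 in Wassilewskija and 5.67 and 5.69 in CSN8. It was named after its values were seen. AT1G48100, AT5G15950 and AT1G06980 belong to the 24 and had mutant differences with DTT of 1.52, 0.81 and 1.19 log2, with adjusted p of 0.117, 0.113 and 0.0684 (limma). AT5G35970 and AT1G13650 had 0.86 and 0.66, with 0.0724 and 0.335. With the batch as a block AT5G15950, AT1G06980 and AT5G35970 were called higher, with adjusted p of 0.0449, 0.0388 and 0.0286.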

How the data were processed

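Gene expression was measured on Affymetrix ATH1 arrays. The deposited log2 values are probe set summaries made with RMA (which corrects background, normalizes by quantiles and combines the probes of a set), per the submitters' processing notes; the software is not given in the sources used here. Precision is limited by how few arrays there are. Of 22810 probe sets, 64 controls were left out; probe sets were named through the platform annotation and RefSeq.

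The loci, the lists and the tests were chosen with earlier results of these data known. limma 3.58.1 (lmFit, contrasts.fit, eBayes; R 4.3.3) was fitted to the 8 Wassilewskija and CSN8 arrays with group means and a shared spread. It tested CSN8 + DTT against Wassilewskija + DTT, and DTT pooled over genotypes, two-sided, with Benjamini-Hochberg adjustment over 22746 probe sets. On simulated data it recovered 97 of 100 changes of 3 log2 and 95 of 100 of 2 log2, with 9 false calls among 22546. Smaller changes were not simulated, while the median mutant difference with DTT was 1.47 log2 for the loci higher in CSN8 and -1.18 for those lower. Of the loci past 2 log2 in size with DTT, some were called (AT1G23130 at -4.17) and some were not (AT5G62360 at -3.14). The simulated recovery therefore does not give the share that can be found among these loci. Named were the 12 loci a direction with the largest smallest change, up to 8 past a threshold, and those of the other sign with DTT. Deviations within a batch correlated between groups with r of 0.07 to 0.57; the pairing comes from the labels' batches. Alternatives were the batch as a block, the 4 DTT arrays alone, renormalization, a filter on dim probe sets, limma-trend, other limits and leaving out each array. A promoter motif search was not run, and no promoter or protein sequences were used here.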

Additional observations from a re-analysis of the deposited data

Results flagged for a closer look

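At 6 loci the DTT change had the same sign in both batches of each genotype and opposite signs in CSN8 and Wassilewskija. The mean log2 change in CSN8 was -0.44 at AT5G35970, against 0.29 in Wassilewskija, and 0.75 at AT5G35735, against -0.83. It was -0.65 at AT5G05600, against 0.50, and -0.37 at AT1G13650, against 0.33. At AT3G24190 it was -0.47 against 0.08, and at AT1G06690 -0.39 against 0.06, so the wild type change was small at both. At AT3G04640 the mutant difference was 0.70 with DTT in place of -1.87 without it, with the sign turned in both batches. None of these differences was tested, because the arrays without DTT also chose the loci.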

How the results depend on the processing

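The mutant difference with DTT was called at 22 of the 64 loci (940 of all probe sets), at 44 (2045) with the batch as a replicate block and at 14 (624) with the 4 DTT arrays alone; leaving out each array in turn gave 4 to 21 (103 to 806). The pooled DTT effect was called at 4 loci (533 of all probe sets), at 11 (1068) with the batch block, 7 without dim probe sets and 8 with limma-trend; leaving out each array gave 0 to 6 (147 to 449). Renormalization and median centring moved neither count by more than 1.5 times. The rule gave 110 loci at a minimum of 0.8 log2, 46 at 1.2 log2, 65 to 68 with overlap allowed, renormalization or centring, 93 with batch 2 alone (added after seeing the data) and 53 to 77 leaving out each Columbia or csn5a-1 array. The sign of the mutant difference with DTT turned at 7 of the 64 loci when an array was left out: AT5G10695 (range -0.11 to 0.79), AT1G72900 (-0.55 to 0.39), AT3G02480 (-0.082 to 1.55), AT5G35735 (-0.63 to 0.60), AT1G19020 (-0.47 to 0.29), AT2G41640 (-0.49 to 0.28) and AT2G25735 (-0.28 to 0.17). With 2 arrays a group, leaving out an array rests the mean of that group on a single array. Why the arrays of a group differed was not tested. Fewer arrays also leave fewer degrees of freedom, which bears on the calls and not on these signs. Over the probe sets tested, the half-width of the 95% interval had a median of 0.48 log2 for the mutant difference with DTT. For the pooled DTT effect it was 0.34. Most of the 64 loci had wider intervals than these medians, which limits what these arrays can resolve. For the mutant difference with DTT the interval was -5.08 to -3.26 at AT1G23130 and -4.98 to -1.31 at AT5G62360.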
